A study of Mus musculus with 3 samples.

Results

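Glucose uptake, glycolysis and lactate handling were described through 10 genes of the 27998 listed in each matrix, matched by symbol: Slc2a1, Slc16a1, Hk1, Pfkp, Aldoa, Aldoc, Gapdh, Pkm, Ldha and Ldhb. All 10 had UMIs in the kept cells. The cells came from the subventricular zone (SVZ), the germinal layer beside the lateral ventricle, of 5 adult mice. It was dissected, dissociated with papain, sorted by fluorescence and captured with 10x Chromium 3' chemistry, version 2. Lines aSMACreERt2::Rosa26-tdTomato and B6;129S-Sox2tm2Hoch/J had been crossed, on a mixed background of C57/Bl6 (3/4) and 129S1SvlmJ (1/4). In them a tamoxifen-dependent Cre, driven by the promoter of smooth muscle actin, switches on tdTomato, and GFP is read from the Sox2 locus. One group was tdTomato-positive/GFP-positive (1 library, 1200 cells sorted) and the other was tdTomato-negative/GFP-positive (2 libraries, 1200 and 6000 cells sorted). Both groups carried all of these alleles and differed in the sorting gate. The promoter is also active in contractile cells of vessels, so the tdTomato-positive gate is not one cell type. Age, tamoxifen dosing and whether the libraries came from separate animals are not stated in the labels. Each p-value thus rests on 3 samples that may differ for technical reasons alone.

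Glucose enters brain cells through facilitative transporters and is cut by the glycolytic enzymes to pyruvate, which either enters mitochondria or is turned to lactate by lactate dehydrogenase. Lactate leaves and enters cells through monocarboxylate transporters. Several steps have more than one gene: aldolase A is the widespread form and aldolase C the brain form, known as a marker of astrocytes, while lactate dehydrogenase is a tetramer of A and B subunits in varying proportion. Endothelium of the blood-brain barrier is known for high Slc2a1 and Slc16a1.

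Both isoform pairs are shown with their promoters, because the choice within each pair is the comparison the data bear on. Each window runs from 250 bases before to 50 bases after a transcription start (RefSeq, GRCm38.p6, 5' to 3' on the gene's strand). Capitals mark ACGTG or GCGTG on either strand (written CACGT or CACGC when on the opposite strand), the core of the hypoxia-response element. A CACGTG counts once on each strand. The windows are chr11:78323948-78324247 (plus strand) for Aldoc, chr7:126799129-126799428 (minus strand) for Aldoa, chr6:142507908-142508207 (minus strand) for Ldhb and chr7:46845554-46845853 (plus strand) for Ldha.
Aldoc: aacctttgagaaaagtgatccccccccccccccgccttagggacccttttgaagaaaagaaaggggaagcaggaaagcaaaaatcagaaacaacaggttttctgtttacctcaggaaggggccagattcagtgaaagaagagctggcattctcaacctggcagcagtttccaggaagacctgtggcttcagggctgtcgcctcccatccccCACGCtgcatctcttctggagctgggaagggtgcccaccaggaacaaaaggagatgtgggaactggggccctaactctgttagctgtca
Aldoa: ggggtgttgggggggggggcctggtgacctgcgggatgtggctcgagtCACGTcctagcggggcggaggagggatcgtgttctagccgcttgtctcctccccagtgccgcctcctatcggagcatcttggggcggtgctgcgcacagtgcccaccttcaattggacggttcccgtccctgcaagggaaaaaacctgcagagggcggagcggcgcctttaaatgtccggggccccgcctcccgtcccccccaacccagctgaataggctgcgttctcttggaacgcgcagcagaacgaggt
Ldhb: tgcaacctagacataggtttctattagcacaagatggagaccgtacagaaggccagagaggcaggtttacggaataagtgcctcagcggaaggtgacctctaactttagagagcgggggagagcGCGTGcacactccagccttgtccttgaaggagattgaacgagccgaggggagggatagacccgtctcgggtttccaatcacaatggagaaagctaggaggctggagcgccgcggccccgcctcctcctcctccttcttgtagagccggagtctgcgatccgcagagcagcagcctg
Ldha: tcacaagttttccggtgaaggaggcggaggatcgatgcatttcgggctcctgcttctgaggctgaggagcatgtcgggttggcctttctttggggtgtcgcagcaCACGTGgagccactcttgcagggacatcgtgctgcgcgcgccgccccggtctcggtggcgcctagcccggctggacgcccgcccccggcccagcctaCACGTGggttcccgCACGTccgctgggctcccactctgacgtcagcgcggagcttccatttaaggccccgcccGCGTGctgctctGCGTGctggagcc
The Ldha window held 7 matches, and the windows of Aldoc, Aldoa and Ldhb held 1 each. GC content was 53.3% in the Aldoc window and 65.7% in the Aldoa window, with 3 and 23 CpG dinucleotides. Across the 10 genes, Slc16a1 had 5 matches, Pfkp 4, Gapdh 3 and Slc2a1 2, while the windows of Hk1 and Pkm had 0. That is 8 of 10 windows with a match, beside 43.8% of the 32851 windows listed for all genes. Both motifs hold a CpG, and the 10 windows, 1 chosen per gene, had 1 to 42 CpG dinucleotides, while over all windows the median was 7 CpG and 52.7% GC. A match describes letters and not binding.

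The tdTomato-positive library kept 252 cells with 720340 UMIs, and tdTomato-negative libraries 1 and 2 kept 256 and 1121 cells with 926246 and 3585917 UMIs. Of these UMIs the 10 genes took 0.239% (tdTomato-positive) and 0.205% and 0.272% (tdTomato-negative 1 and 2). The median mitochondrial share was 8.27% (tdTomato-positive) and 3.22% and 3.38% (tdTomato-negative 1 and 2). Barcodes shared between libraries numbered 0 to 2 per pair. Cells were clustered without the 10 genes and named from marker lists. The classes were 234 ependymal-like cells (177 of them tdTomato-positive), 281 astrocyte-like cells (16 tdTomato-positive), 145 dividing-cell-like, 263 neuroblast-like, 453 young interneuron-like, 69 oligodendrocyte precursor-like and 37 oligodendrocyte-like cells. A class of 105 cells led by Ung, Mcm2 and Mcm3 stayed unnamed. Only the tdTomato-positive library held 20 endothelial-like, 8 mural-like and 14 microglia-like cells, so those classes have no replicate and no test. Dividing-cell-like, unnamed, neuroblast-like, young interneuron-like and oligodendrocyte precursor-like cells gave sums only in tdTomato-negative libraries 1 and 2, and a pair of values of such a class comes from these. Median depth differed, from 1818 UMIs in young interneuron-like to 7208 in dividing-cell-like cells. Levels are given as CPM, a gene's UMIs divided by all UMIs of the cells summed per class and library, times 1000000. A 3' UMI counts a molecule whatever its length, so CPM of different genes can be set side by side, apart from differences in capture.

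**Figure D1:**
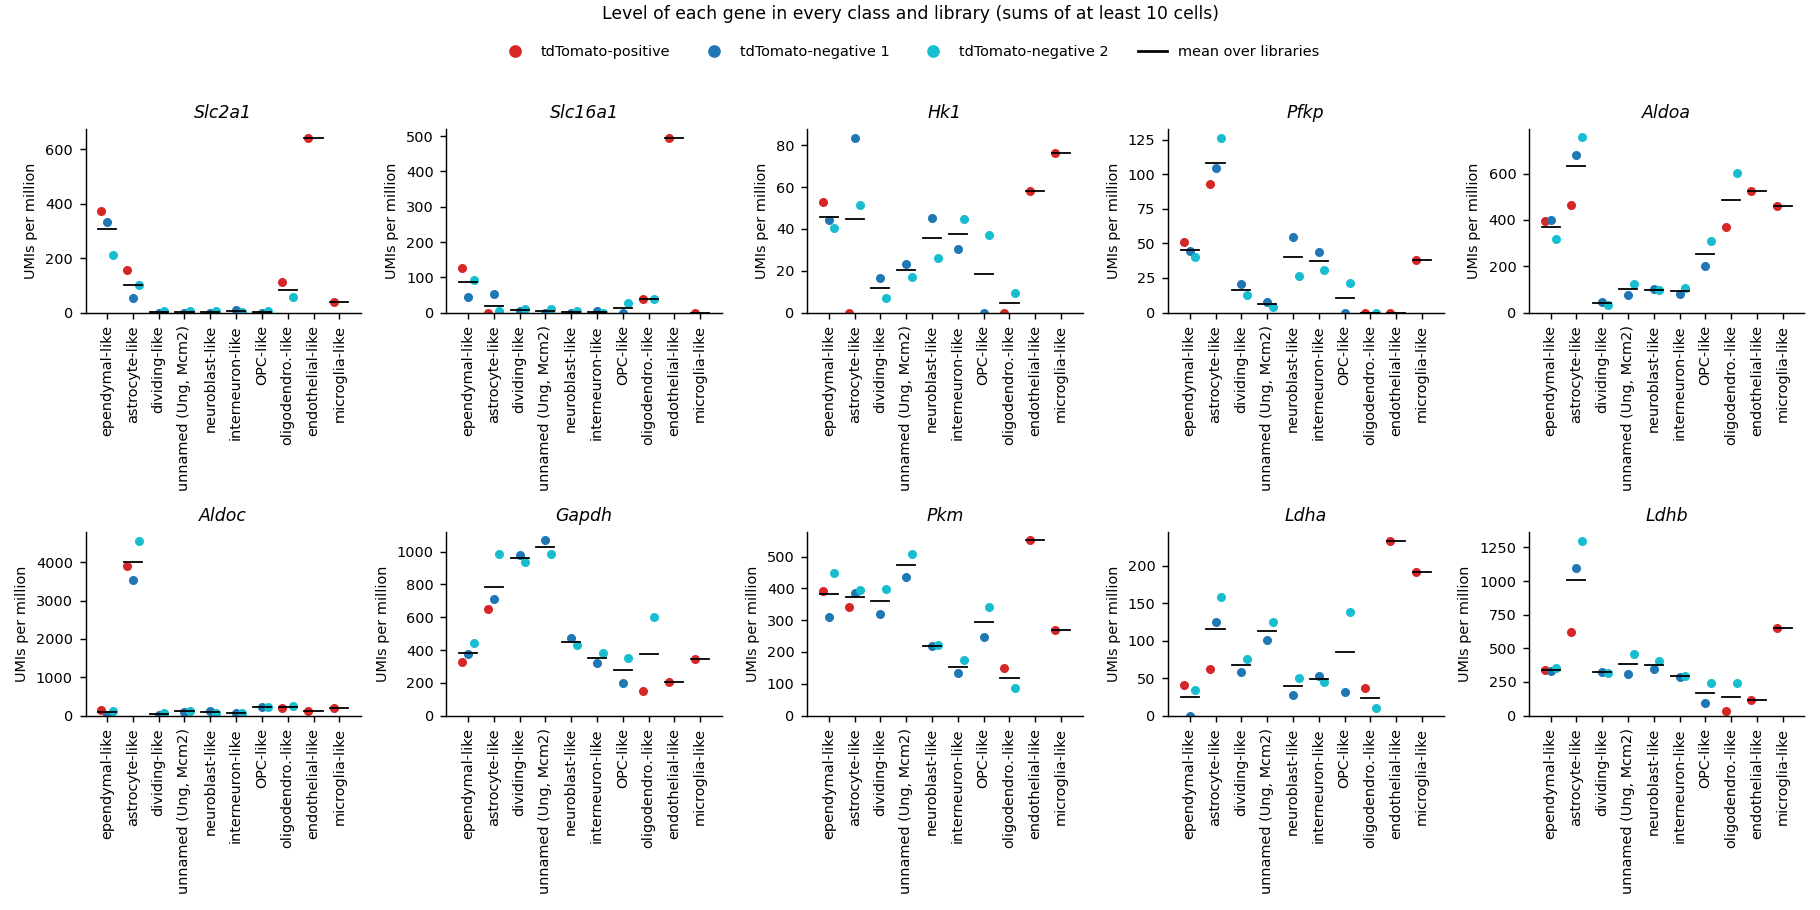
Level of each of the 10 genes (CPM, linear axes that differ between panels) in every class and library with at least 10 cells. Each point is 1 library and each bar the mean over libraries. Aldoc stands at 3532 to 4556 CPM in astrocyte-like cells and at 249 CPM or less in every other sum. By mean, Gapdh is highest in the unnamed and dividing-cell-like classes. The highest astrocyte-like Gapdh point (987 CPM) lies within the unnamed range and above both dividing-cell-like points.

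Slc2a1, the glucose transporter GLUT1, was concentrated in ependymal-like and endothelial-like cells. It stood at 374 (tdTomato-positive), 334 and 213 CPM (tdTomato-negative 1 and 2) in ependymal-like cells. Astrocyte-like cells had 156 (tdTomato-positive), 52.2 and 101 CPM (tdTomato-negative 1 and 2), from 5, 5 and 55 UMIs. The lowest ependymal-like sum (213 CPM, 37 UMIs) lay above the highest astrocyte-like sum (156 CPM), where 5 UMIs leave a wide counting error. The fitted log2 fold change of ependymal-like over astrocyte-like cells was 1.30 ± 0.28 (SE; edgeR quasi-likelihood, adjusted p = 3.00e-05), higher in 3 of 3 libraries. The 20 endothelial-like cells had 641 CPM (22 UMIs, 95% Poisson interval 402 to 971). In dividing-cell-like, unnamed, neuroblast-like, young interneuron-like and oligodendrocyte precursor-like cells the means were 2.12 to 5.89 CPM, and neighbours in that range overlapped. Against dividing-cell-like cells the log2 fold change was 5.41 ± 0.45 for ependymal-like and 4.12 ± 0.48 for astrocyte-like cells. Against the 3 UMIs of neuroblast-like cells, the counting ratio of ependymal-like cells was 76.9 (95% interval 26.0 to 375, counting error only). It pools libraries: 220 of the 272 ependymal-like UMIs came from the tdTomato-positive library, which had 0 neuroblast-like cells, so gate and class are mixed in it. Of ependymal-like cells 61.5% had a Slc2a1 UMI (144 of 234), against 18.9% of astrocyte-like cells (53 of 281). In neuroblast-like cells the share was 1.14% (3 of 263), at a median depth of 2462 UMIs beside 3632.5 UMIs in ependymal-like cells. After thinning every cell to 1000 UMIs the shares were 29.2% in ependymal-like, 8.89% in astrocyte-like and 0.380% in neuroblast-like cells.

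Markers of other cells were read in the same sums. The 10 endothelial markers summed to 1163 (tdTomato-positive), 845 and 1133 CPM (tdTomato-negative 1 and 2) in ependymal-like cells, with 8, 3 and 5 of the 10 detected, and to 622 (tdTomato-positive), 334 and 322 CPM (tdTomato-negative 1 and 2) in astrocyte-like cells, so their sum was higher in ependymal-like cells of each library, as Slc2a1 was. Endothelial-like cells had 20251 CPM. At 0 in ependymal-like cells were Pecam1 and Cdh5 (tdTomato-positive), Cldn5, Flt1, Ly6c1, Cdh5 and Egfl7 (both tdTomato-negative libraries), and also Kdr and Slco1c1 (tdTomato-negative 1). The tdTomato-negative libraries held 0 endothelial-like cells. The 8 choroid plexus markers summed to 491 (tdTomato-positive), 178 and 265 CPM (tdTomato-negative 1 and 2) in ependymal-like cells, with 6, 3 and 4 detected and Kl and Kcne2 at 0 in each, and to 124 (tdTomato-positive), 31.3 and 11.0 CPM (tdTomato-negative 1 and 2) in astrocyte-like cells. The part of either marker list in the Slc2a1 result was not tested. The median mitochondrial share was 8.64% in ependymal-like and 4.87% in astrocyte-like cells, and its part was not tested either.

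Slc16a1, the monocarboxylate transporter MCT1 that carries lactate and pyruvate, had the same leading classes. Ependymal-like cells had 126 (tdTomato-positive), 44.5 and 92.05 CPM (tdTomato-negative 1 and 2). Astrocyte-like cells had 0 (tdTomato-positive), 52.2 and 3.66 CPM (tdTomato-negative 1 and 2), from 0, 5 and 2 UMIs. Ependymal-like cells were thus higher in 2 of 3 libraries and lower in tdTomato-negative library 1, where they gave 2 UMIs. The log2 fold change was 2.90 ± 0.61 (adjusted p = 1.46e-05), but DESeq2 gave 2.06 with an adjusted p of 0.345, and without tdTomato-negative library 2 the value was 1.20 with an adjusted p of 0.484. Endothelial-like cells had 495 CPM (17 UMIs, interval 289 to 793). Oligodendrocyte-like cells averaged 37.7 ± 0.86 CPM (SD, n = 2) on 5 UMIs, and dividing-cell-like, unnamed, neuroblast-like and young interneuron-like cells averaged 2.17 to 7.76 CPM with overlapping ranges. A Slc16a1 UMI was seen in 29.1% of ependymal-like cells (68 of 234) and in 2.14% of astrocyte-like cells (6 of 281), against 1.14% of neuroblast-like cells. Thinned shares were 12.04%, 1.11% and 0.760%, so the astrocyte-like share lay close to that of cells with almost no Slc16a1.

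Hk1, hexokinase 1, which phosphorylates incoming glucose, was low in every class, with means of 4.79 to 76.5 CPM. It had 52.7 (tdTomato-positive), 44.5 and 40.3 CPM (tdTomato-negative 1 and 2) in ependymal-like cells and 0 (tdTomato-positive), 83.6 and 51.3 CPM (tdTomato-negative 1 and 2) in astrocyte-like cells. The astrocyte-like spread enclosed the ependymal-like values, and the log2 fold change was -0.15 ± 0.52 (adjusted p = 0.877). Dividing-cell-like cells had 16.7 and 6.81 CPM, against 45.4 and 26.1 CPM in neuroblast-like cells. The dividing cells were lower in both libraries, with a log2 fold change of -1.70 ± 0.61 (adjusted p = 0.031), and this call was lost in 6 of the alternatives tried. Astrocyte-like cells exceeded dividing-cell-like cells by 2.64 ± 0.54 on the log2 scale, and ependymal-like cells did by 2.49 ± 0.66.

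Pfkp, the platelet form of phosphofructokinase at the committed step, was highest in astrocyte-like cells. That held for their Gfap-poor cluster (mean 124 CPM) and not for the Gfap-rich cluster (mean 8.20 CPM on 2 UMIs), both described below. Ependymal-like cells had 51.0 (tdTomato-positive), 44.5 and 40.3 CPM (tdTomato-negative 1 and 2), against 93.3 (tdTomato-positive), 104 and 126 CPM (tdTomato-negative 1 and 2) in astrocyte-like cells, and every sum outside astrocyte-like cells had 54.4 CPM at most. The ranges did not overlap, but several sums hold few UMIs. Ependymal-like cells gave 30 (tdTomato-positive), 2 and 7 UMIs (tdTomato-negative 1 and 2), and astrocyte-like cells 3, 10 and 69 in the same order. The log2 fold change of ependymal-like over astrocyte-like cells was -1.36 ± 0.44 (edgeR, adjusted p = 0.00954). It was -1.19 with an adjusted p of 0.184 without tdTomato-negative library 1. Astrocyte-like cells lay above dividing-cell-like cells by 3.12 ± 0.42 and above neuroblast-like cells by 1.98 ± 0.41 on the log2 scale. In the unnamed class led by Ung and Mcm2 only 3 Pfkp UMIs were counted in 104 cells of both tdTomato-negative libraries, and oligodendrocyte-like cells had 0 of 37 cells with a UMI. Counting error alone (3 cells) allows up to 8.11% of cells with a Pfkp UMI there, which is no limit on cells expressing the gene.

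The aldolases split by cell class, with Aldoc set apart in astrocyte-like cells and Aldoa spread over glia, endothelial-like and microglia-like cells. Aldoc had 141 (tdTomato-positive), 22.2 and 115 CPM (tdTomato-negative 1 and 2) in ependymal-like cells. In astrocyte-like cells it stood at 3889 (tdTomato-positive), 3532 and 4556 CPM (tdTomato-negative 1 and 2). The astrocyte-like sums were far above every other sum, and the log2 fold change of ependymal-like over astrocyte-like cells was -4.92 ± 0.17 (adjusted p = 5.58e-181). Astrocyte-like cells exceeded dividing-cell-like cells by 6.54 ± 0.18 and neuroblast-like cells by 5.83 ± 0.19 on the log2 scale. An Aldoc UMI was found in 96.8% of astrocyte-like cells (272 of 281), and in 93.0% after thinning.

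Aldoc outside astrocyte-like cells was set beside the astrocyte markers there. In each library, Aldoc in a class other than astrocyte-like was 0.471% to 6.54% of its level in astrocyte-like cells. For the 15 astrocyte markers of the same class and library, the median of that percentage was 0 to 6.14%. In ependymal-like cells, 9 to 12 of those 15 markers lay above Aldoc's percentage. Over all 17 sums the number ran from 1 in neuroblast-like cells of tdTomato-negative library 1 to 13 in young interneuron-like cells of library 2, and it was 3 or 4 in microglia-like, endothelial-like and tdTomato-positive oligodendrocyte-like cells. Aldoa, by contrast, reached 84.9% (tdTomato-positive), 59.0% and 41.8% (tdTomato-negative 1 and 2) of the astrocyte-like level in ependymal-like cells, and 4.50% to 16.5% in dividing-cell-like, unnamed, neuroblast-like and young interneuron-like cells. Over the 17 sums other than astrocyte-like, Aldoa lay above the marker median in 17 and Aldoc in 8. How much of the Aldoc counted outside astrocyte-like cells is free RNA was not tested.

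**Figure D2:**
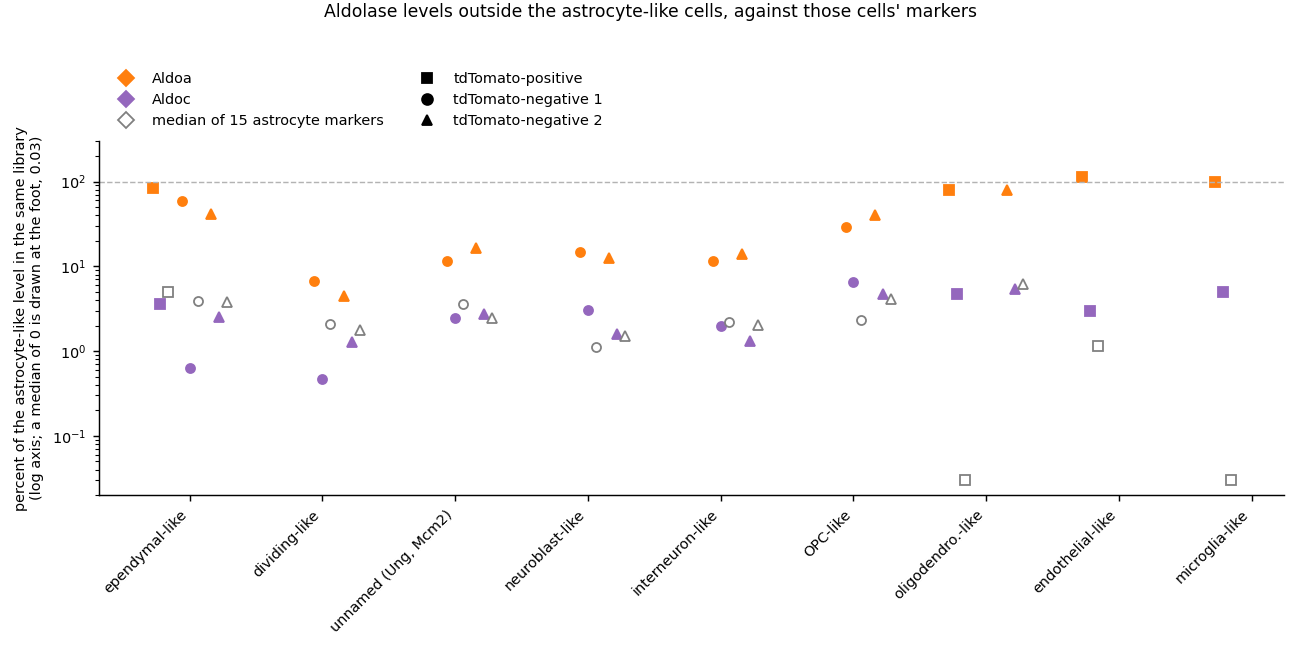
Aldoa and Aldoc in each class as a percent of the astrocyte-like level of the same library, on a log axis, beside the median of 15 astrocyte markers. Each symbol is 1 library; Aldoc stays between 0.471% and 6.54%, mixed with the marker medians, while Aldoa lies above both and reaches 112% in endothelial-like cells.

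Of both aldolases, Aldoa was the lower in astrocyte-like cells, yet its own mean was highest in that class. Ependymal-like cells had 396 (tdTomato-positive), 400.4 and 316 CPM (tdTomato-negative 1 and 2), against 467 (tdTomato-positive), 679 and 757 CPM (tdTomato-negative 1 and 2) in astrocyte-like cells. Ependymal-like cells were lower in each of the 3 libraries, with a log2 fold change of -0.87 ± 0.18 (adjusted p = 1.30e-05), which fell short without tdTomato-negative library 1 (-0.57, adjusted p = 0.436) or library 2 (-0.51, adjusted p = 0.557). The means of endothelial-like (524 CPM) and oligodendrocyte-like cells (487 ± 164 CPM, SD, n = 2) lay inside the astrocyte-like range, and microglia-like cells had 459 CPM. Dividing-cell-like cells were at the other end with 45.8 and 34.0 CPM, against 99.8 and 95.7 CPM in neuroblast-like cells of the same libraries. The classes did not overlap, and the log2 fold change of dividing-cell-like over neuroblast-like cells was -1.40 ± 0.33 (adjusted p = 0.000259).

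As a share of both aldolases, Aldoc made up 26.3% (tdTomato-positive), 5.26% and 26.7% (tdTomato-negative 1 and 2) of UMIs in ependymal-like cells (19.4% ± 12.2, SD, n = 3) and 89.3% (tdTomato-positive), 83.9% and 85.8% (tdTomato-negative 1 and 2) in astrocyte-like cells (86.3% ± 2.75, SD, n = 3). Ependymal-like minus astrocyte-like shares were -78.6 to -59.1 percentage points, lower in 3 of 3 libraries. The -78.6 end is tdTomato-negative library 1, where the 5.26% share is 1 Aldoc UMI beside 18 of Aldoa (exact 95% interval 0.133% to 26.0%). The two-sided exact permutation test over 3 library pairs gave p = 0.25, the smallest it can give. Oligodendrocyte-like cells averaged 31.3%, and oligodendrocyte precursor-like, neuroblast-like, young interneuron-like and unnamed cells 41.6% to 51.2%, on low Aldoc counts. Dividing-cell-like cells had 26.7% (4 of 15 UMIs) and 63.4%. Within single ependymal-like cells, both aldolases were seen in 58 of 234, Aldoc alone in 18 and Aldoa alone in 95. Of 281 astrocyte-like cells both were seen in 209, Aldoc alone in 63 and Aldoa alone in 3. With each cell thinned to 1000 UMIs, Aldoa alone was seen in 60 of 216 ependymal-like cells and in 5 of 270 astrocyte-like cells. Aldoc alone was then seen in 23 ependymal-like and 114 astrocyte-like cells.

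**Figure D3:**
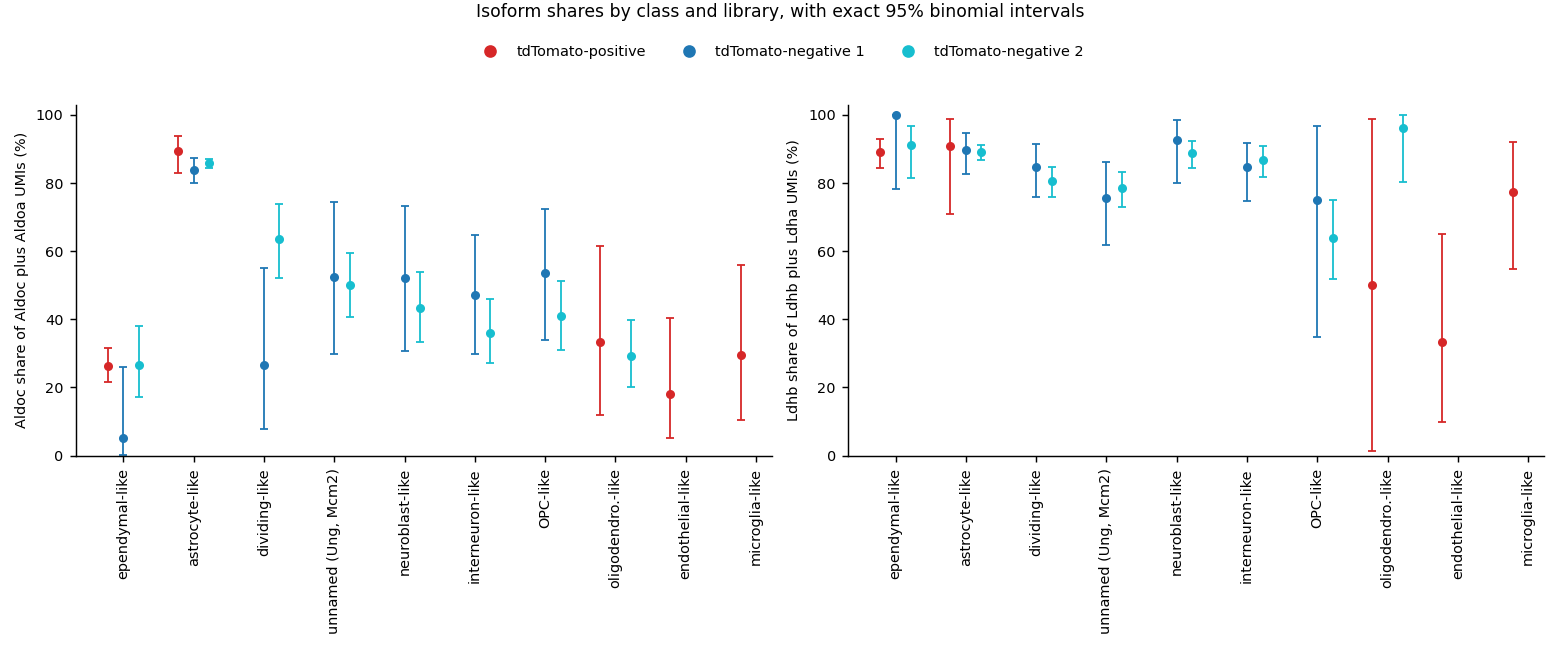
Aldoc as a percent of Aldoc plus Aldoa UMIs (left) and Ldhb as a percent of Ldhb plus Ldha UMIs (right) by class. Each point is 1 library with its exact 95% binomial interval, which covers counting error only; the 3 astrocyte-like Aldoc shares lie between 83.9% and 89.3%, above every other class, while Ldhb shares of most classes lie above 75%.

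Gapdh, the dehydrogenase often taken as a constant reference gene, was not constant between these classes. Ependymal-like cells had 325 (tdTomato-positive), 378 and 443 CPM (tdTomato-negative 1 and 2), and astrocyte-like cells had 653 (tdTomato-positive), 711 and 987 CPM (tdTomato-negative 1 and 2). It had 978 and 939.8 CPM in dividing-cell-like cells, and 1073 and 985 CPM in the unnamed class. The astrocyte-like range overlapped the dividing-cell-like range, while every ependymal-like sum lay below both. Ependymal-like cells were lower than astrocyte-like cells by a log2 fold change of -1.03 ± 0.17 (adjusted p = 4.80e-08), a call lost without either tdTomato-negative library (-0.82 and -0.97; adjusted p = 0.188 and 0.103). They were lower than dividing-cell-like cells by -0.99 ± 0.18 (adjusted p = 1.72e-07). Dividing-cell-like cells exceeded neuroblast-like cells, which had 472 and 429.9 CPM, by 1.11 ± 0.15 on the log2 scale (adjusted p = 1.62e-11). Astrocyte-like over dividing-cell-like cells gave 0.04 ± 0.14 (adjusted p = 0.837), and the sign turned to -0.38 when only library totals were used for scaling. Processed pseudogenes of Gapdh, Aldoa, Ldha and Pkm exist, and the treatment of reads that match several places is not given in the sources used here, so their counts are less certain. That limit extends to Aldoc set against Aldoa and Ldhb set against Ldha, and so to both isoform shares.

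Pkm, the pyruvate kinase of brain and dividing cells, differed little between ependymal-like and astrocyte-like cells. It had 391 (tdTomato-positive), 311 and 449 CPM (tdTomato-negative 1 and 2) in ependymal-like cells and 342 (tdTomato-positive), 387 and 394 CPM (tdTomato-negative 1 and 2) in astrocyte-like cells, with overlapping ranges (log2 fold change 0.03 ± 0.20, adjusted p = 0.936). Dividing-cell-like cells had 321 and 398 CPM and neuroblast-like cells 218 and 221 CPM, a log2 fold change of 0.76 ± 0.19 (adjusted p = 0.000643). Young interneuron-like cells had 135 and 173 CPM, below every neuroblast-like sum. Ependymal-like cells exceeded neuroblast-like cells by 0.95 ± 0.23 and astrocyte-like cells did by 0.92 ± 0.20 on the log2 scale. The M1 and M2 splice forms of Pkm cannot be told apart in counts per gene.

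Ldhb, the subunit that favours lactate use, outnumbered Ldha, the subunit that favours lactate production, in 18 of the 20 sums of class and library. The exceptions were endothelial-like cells and a tie of 1 UMI each in tdTomato-positive oligodendrocyte-like cells. Ldhb had 337 (tdTomato-positive), 334 and 351 CPM (tdTomato-negative 1 and 2) in ependymal-like cells and 622 (tdTomato-positive), 1097 and 1301 CPM (tdTomato-negative 1 and 2) in astrocyte-like cells. The ranges did not overlap, although the tdTomato-positive astrocyte-like sum, of 16 cells, was well below the other two. The log2 fold change of ependymal-like over astrocyte-like cells was -1.57 ± 0.17 (adjusted p = 3.85e-18). Dividing-cell-like cells (325 and 316 CPM) and neuroblast-like cells (345 and 406 CPM) were close to ependymal-like cells, and those contrasts did not pass. Microglia-like cells had 650 CPM on 17 UMIs.

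Ldha was scarce in every class with replicates. It had 40.8 (tdTomato-positive), 0 and 34.5 CPM (tdTomato-negative 1 and 2) in ependymal-like cells, from 24, 0 and 6 UMIs. Astrocyte-like cells had 62.2 (tdTomato-positive), 125 and 158 CPM (tdTomato-negative 1 and 2), from 2, 12 and 86 UMIs. Ependymal-like cells were lower in each library, but in the tdTomato-positive one the direction rests on 2 astrocyte-like UMIs. The log2 fold change was -1.95 ± 0.42 (adjusted p = 2.18e-05), and it missed the threshold without tdTomato-negative library 1 (-1.57, adjusted p = 0.0539) or library 2 (-1.54, adjusted p = 0.258). The unnamed class had 101 and 125 CPM and dividing-cell-like cells 58.3 and 76.0 CPM. Single sums were highest in endothelial-like cells, at 233 CPM on 8 UMIs (interval 101 to 459), and in microglia-like cells, at 191 CPM on 5 UMIs.

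The Ldhb share of both subunits varied less between classes than the Aldoc share. It was 93.4% ± 5.78 in ependymal-like and 89.9% ± 0.87 in astrocyte-like cells (SD, n = 3 each). It was 82.7% ± 2.97 in dividing-cell-like, 90.8% ± 2.65 in neuroblast-like, 76.9% ± 2.06 in unnamed and 69.4% ± 7.86 in oligodendrocyte precursor-like cells (SD, n = 2 each). Dividing-cell-like minus neuroblast-like shares were -7.90 and -8.35 points, and astrocyte-like minus dividing-cell-like shares 4.96 and 8.62 points, but with 2 pairs the exact permutation test cannot go below p = 0.5. Endothelial-like cells had an Ldhb share of 33.3% (4 of 12 UMIs, exact interval 9.92% to 65.1%), the only share of the 20 with Ldha in the majority.

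The 6 class comparisons were tested together with edgeR's quasi-likelihood test on 20 sums, with the library as a block and Benjamini-Hochberg adjustment over 3698 genes. Spread was estimated over the sums of all classes, with 8 residual degrees of freedom, and pooled between genes. A very small p-value, as for Aldoc, is therefore no measure of that gene's own spread among 3 libraries. Of the 10 genes, 2 were higher and 6 lower in ependymal-like than in astrocyte-like cells, where 29.7% of all genes tested passed (17.4% higher, 12.2% lower). The transporters Slc2a1 and Slc16a1 were the 2 that rose. Ependymal-like over dividing-cell-like cells gave 6 higher and 1 lower (42.6% of all genes, 24.5% higher and 18.1% lower). Over neuroblast-like cells there were 5 higher and 0 lower (40.2%, 23.7% higher and 16.5% lower). Astrocyte-like over dividing-cell-like cells gave 7 higher and 0 lower (47.1%, 23.8% higher and 23.3% lower), with Slc16a1, Gapdh and Pkm not passing. Astrocyte-like over neuroblast-like cells gave 8 higher and 0 lower (39.4%, 21.2% higher and 18.2% lower), with Slc16a1 and Hk1 not passing. Dividing-cell-like over neuroblast-like cells gave 2 higher, Gapdh and Pkm, and 2 lower, Hk1 and Aldoa (19.4%, 10.5% higher and 8.92% lower). The median log2 fold change of the 10 genes was -0.95, 1.69, 0.85, 2.33, 1.74 and -0.03 in these 6 comparisons in that order, beside 0.01 to 0.07 over all genes tested. Fold changes are relative to trimmed-mean scaling. With library totals alone the median over all genes moved by up to -0.38, in astrocyte-like over dividing-cell-like cells. There the split of all calls went to 666 higher and 1228 lower, beside 881 higher and 861 lower, and in astrocyte-like over neuroblast-like cells it went to 628 and 1010, beside 783 and 673. In ependymal-like over astrocyte-like cells it went to 814 higher and 369 lower, beside 645 and 452. The Aldoc calls of ependymal-like over dividing-cell-like (1.62 ± 0.30) and over neuroblast-like cells (0.91 ± 0.30) compare low Aldoc values on both sides. The second was higher in 1 of 2 libraries and was lost in 9 of the alternatives tried.

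Several of these calls did not pass once 1 library was left out. In dividing-cell-like over neuroblast-like cells Gapdh, Pkm and Aldoa did not pass without either one, with adjusted p-values of 0.385 and 0.397 for Gapdh, while its fitted values of 1.08 and 1.09 stayed near the 1.11 of all libraries. In astrocyte-like over neuroblast-like cells Gapdh (1.22 and 0.60) and Pkm (0.77 and 0.72) did not pass without library 1 or 2, and Ldha (1.95) did not without library 2. Ldha in astrocyte-like over dividing-cell-like cells did not pass without either (0.98 and 0.84), nor did Pkm in ependymal-like over neuroblast-like cells (1.10 and 0.65). In ependymal-like over dividing-cell-like cells Gapdh (-0.68) and Aldoc (1.47) did not pass without tdTomato-negative library 1, Slc16a1 (3.93) did not without library 2, and Pfkp (1.55) did not without the tdTomato-positive library. Slc16a1 also did not pass with DESeq2 (3.70, adjusted p = 0.0612), nor Pfkp with a stricter cell filter of 1000 UMIs and 10% mitochondrial share (1.23, adjusted p = 0.156). Slc16a1 in ependymal-like over neuroblast-like cells did not pass without tdTomato-negative library 2, where it has 0 neuroblast-like UMIs left. In ependymal-like over dividing-cell-like cells Ldha passed without the tdTomato-positive library (-1.33, adjusted p = 0.0448), and Ldhb passed with RLE scaling, the size factors of DESeq2 (0.57, adjusted p = 0.0131). Ldhb also passed there at clustering resolution 0.5 (0.48, adjusted p = 0.0393).

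**Figure D4:**
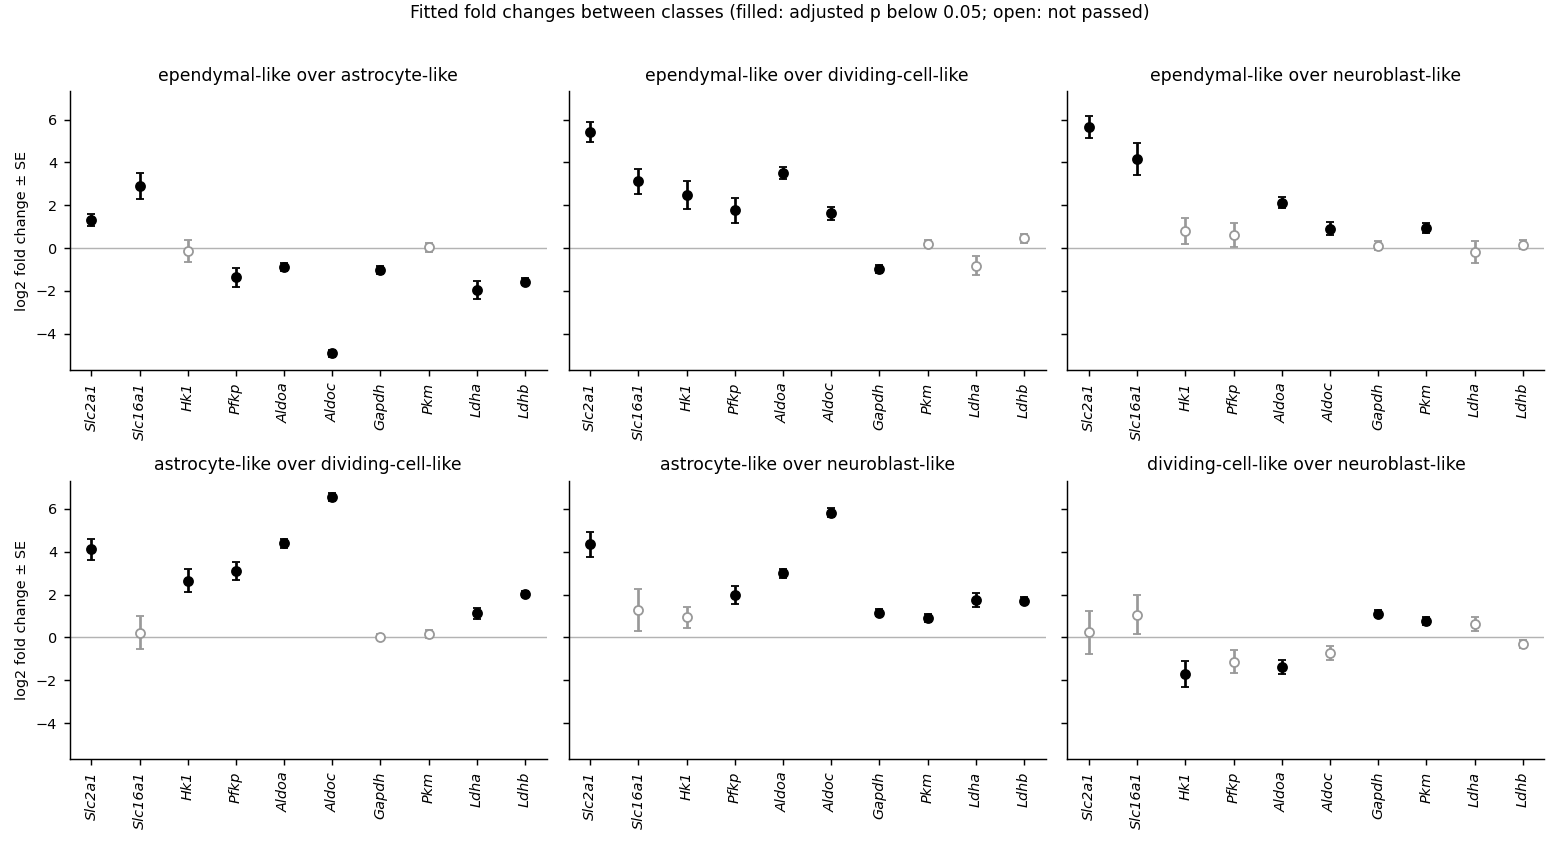
Fitted log2 fold change (± SE) of the 10 genes in the 6 class comparisons, first-named class over second. Filled points passed an adjusted p of 0.05 and open points did not; Aldoc spans from -4.92 in ependymal-like over astrocyte-like cells to 6.54 in astrocyte-like over dividing-cell-like cells, while Pkm stays between 0.03 and 0.95.

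A wider list of 92 genes of transport, glycolysis, pyruvate entry, glycogen, the pentose phosphate pathway and regulators gave the surroundings, of which 42 could be tested between classes. In ependymal-like over astrocyte-like cells 3 were higher and 13 lower, beside 17.4% higher and 12.2% lower over all genes tested, with a median of -0.57 beside 0.04. Txnip, an arrestin that restrains glucose uptake, rose by 3.79 ± 0.38, the HIF prolyl hydroxylase Egln1 by 2.05 ± 0.78, and Minpp1, an inositol phosphate and bisphosphoglycerate phosphatase, by 1.63 ± 0.53. Glycogen genes were lower in 4 of 8 tested and higher in 0. Among them were the phosphorylase kinase subunit Phkg1 (-1.88 ± 0.25) and the phosphoglucomutase Pgm2, whose 3 ependymal-like UMIs against 64 give a ratio of 0.0391 (95% interval 0.00786 to 0.120). Other enzymes of glycolysis were lower in 6 of 12 and higher in 1, and Eno1, enolase, was lower by -1.73 ± 0.19, on 178 UMIs against 628. Pfkm, the muscle phosphofructokinase (-1.98 ± 0.55), and Pfkfb4, which sets its activator (-2.17 ± 0.85, lower in 2 of 3 libraries), were lower too. So were the hypoxia factors Hif1a (-2.27 ± 0.69) and Epas1 (-2.23 ± 0.71), and the glycerol phosphate dehydrogenase Gpd1, with 3 against 11 UMIs (ratio 0.228, interval 0.0408 to 0.862, lower in 2 of 3 libraries).

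Against dividing-cell-like cells, 18 of the 42 genes were higher and 4 lower in ependymal-like cells (all genes 24.5% and 18.1%), and 23 were higher and 3 lower in astrocyte-like cells (all genes 23.8% and 23.3%). Glycogen genes were higher in 5 of 8 in ependymal-like and in 7 of 8 in astrocyte-like cells. Phkg1 was higher by 3.81 ± 0.47 in ependymal-like and 5.70 ± 0.32 in astrocyte-like cells, and the brain glycogen phosphorylase Pygb by 3.24 ± 0.41 and 3.17 ± 0.37. Ppp1r3c, which targets phosphatase to glycogen, had 33 UMIs in ependymal-like and 56 in astrocyte-like cells, against 1 in dividing-cell-like cells. Ppargc1a, a coactivator of mitochondrial genes, was higher by 4.10 ± 0.72 and 4.63 ± 0.59, and the pyruvate dehydrogenase kinase Pdk2 by 2.31 ± 0.69 and 2.84 ± 0.53. Eno1 stood at 791 ± 179 CPM in astrocyte-like cells (SD, n = 3) against 124 ± 9.86 CPM in dividing-cell-like cells (SD, n = 2), a log2 fold change of 2.98 ± 0.18. Slc16a6, of the monocarboxylate transporter family, went the other way: ependymal-like cells had 0 UMIs against 25 in dividing-cell-like cells, at least 5.998-fold lower with a floor of 3 UMIs over the class.

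Against neuroblast-like cells, 18 genes were higher and 2 lower in ependymal-like cells (all genes 23.7% and 16.5%), and 22 higher and 0 lower in astrocyte-like cells (all genes 21.2% and 18.2%). Ppargc1a had 0 UMIs in neuroblast-like cells, so it was at least 12.7-fold higher in ependymal-like and at least 20.7-fold higher in astrocyte-like cells with the same floor. Tpi1, triosephosphate isomerase, exceeded neuroblast-like cells by 2.63 ± 0.27 in astrocyte-like cells, and Ugp2, which makes UDP-glucose, did by 2.67 ± 0.27. In dividing-cell-like over neuroblast-like cells 3 genes were higher and 1 lower (all genes 10.5% and 8.92%): Pgk1, phosphoglycerate kinase (1.31 ± 0.30), Pgam1, phosphoglycerate mutase (0.69 ± 0.22), Slc16a6 (25 against 2 UMIs, ratio 7.63, interval 1.90 to 66.5) and, lower, Eno1 (-0.73 ± 0.22).

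Within the astrocyte-like class, clustering set apart 69 Gfap-rich cells (leading genes Gfap, Id3, Thbs4) and 212 Gfap-poor cells (leading genes Slc7a10, Htra1, Ntm). The Gfap-rich cluster gave sums in tdTomato-negative libraries 1 and 2 only. Of the 10 genes, 0 were higher and 1 was lower in the Gfap-rich than in the Gfap-poor cluster, where 4.36% of 3420 genes passed (2.08% higher, 2.28% lower). The 1 was Pfkp, with 0 and 16.4 CPM in the Gfap-rich cluster and 76.3 (tdTomato-positive), 138 and 158 CPM (tdTomato-negative 1 and 2) in the Gfap-poor cluster of all 3 libraries. The Gfap-rich sums lay below all Gfap-poor sums, on 2 UMIs against 79 (ratio 0.0910, 95% interval 0.0108 to 0.340; adjusted p = 0.000215, and 0.141 without tdTomato-negative library 1). Ldha had 0 and 90.1 CPM in the Gfap-rich cluster, against 76.3 (tdTomato-positive), 166 and 177 CPM (tdTomato-negative 1 and 2) in the Gfap-poor cluster, and did not pass (adjusted p = 0.0832). Ldhb had 1372 and 1778 CPM in the Gfap-rich cluster, against 458 (tdTomato-positive), 1009 and 1163 CPM (tdTomato-negative 1 and 2) in the Gfap-poor cluster, without overlap, and did not pass either (0.40 ± 0.22, adjusted p = 0.399). Without the tdTomato-positive library Ldha (-1.54, adjusted p = 0.0154) and Aldoc (-0.52, adjusted p = 0.00767) passed, and Ldha also passed with RLE scaling (-1.43, adjusted p = 0.0317) and at clustering resolution 2.0 (-1.51, adjusted p = 0.0433). Scaling by library totals alone, which shifts the median of all genes by 0.33 here, brought Ldhb (0.79) and Pkm (0.81) past the threshold and gave 211 higher and 47 lower calls among all genes, beside 71 and 78. The Ldhb share was 100% and 95.2% in the Gfap-rich cluster and 85.9% and 86.8% in the Gfap-poor cluster of the same libraries, higher in both. Aldoc stood at 3645 and 3901 CPM in the Gfap-rich and at 3817 (tdTomato-positive), 3496 and 4745 CPM (tdTomato-negative 1 and 2) in the Gfap-poor cluster, with overlap. From the wider list 3 genes were lower, among them Phkg1 (-2.51 ± 0.40) and Eno1 (-1.62 ± 0.23), and 0 genes were higher (all genes 2.28% and 2.08%).

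Between the sorting gates, with all kept cells summed per library, 3 of the 10 genes were higher and 2 lower in the tdTomato-positive library, where 41.8% of 10944 genes passed (22.9% higher, 19% lower). The spread comes from both tdTomato-negative libraries alone, with 1 residual degree of freedom, and the single tdTomato-positive library is assumed to vary like them, so these calls and errors describe 3 libraries. DESeq2 called 1866 genes, beside 4579 here. Slc2a1 had 353 CPM on the tdTomato-positive side, against 23.8 and 31.2 CPM in both tdTomato-negative libraries, and Slc16a1 had 128 CPM against 9.72 and 12.5 CPM. Aldoa had 405 CPM against 159 and 224 CPM. Each lay above both tdTomato-negative values, with log2 fold changes of 3.65 ± 0.31, 3.46 ± 0.35 and 1.11 ± 0.31. Gapdh (325 CPM against 649 and 706 CPM) and Aldoc (314 CPM against 429 and 771 CPM) lay below both, with -1.01 ± 0.33 and -0.91 ± 0.33. With DESeq2, Aldoa (adjusted p = 0.0503) and Aldoc (adjusted p = 0.557) did not pass. Without tdTomato-negative library 2 the Aldoc value was -0.31, with no test. From the wider list 19 of 64 were higher and 3 lower, beside the 22.9% and 19% of all genes. Bsg, basigin, the partner that brings MCT1 to the membrane, had 1319 CPM against a mean of 329 ± 16.7 CPM (SD, n = 2), a log2 fold change of 2.05 ± 0.30.

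The gates differed in their cells, and the classes that held the UMIs differed with them. Ependymal-like cells were 70.2% (tdTomato-positive), 4.69% and 4.01% (tdTomato-negative 1 and 2) of the kept cells. They held 86.6% (tdTomato-positive), 68.2% and 33.0% (tdTomato-negative 1 and 2) of the Slc2a1 UMIs. Astrocyte-like cells held 1.97% (tdTomato-positive), 22.7% and 49.1% (tdTomato-negative 1 and 2), the largest share in the last, and endothelial-like cells held 8.66% in the tdTomato-positive library. Astrocyte-like cells held 55.3% (tdTomato-positive), 85.1% and 89.9% (tdTomato-negative 1 and 2) of the Aldoc UMIs, the first from 16 cells. Dividing-cell-like cells held 39.1% and 32.7% of Gapdh UMIs in the tdTomato-negative libraries and were absent from the tdTomato-positive one.

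**Figure D5:**
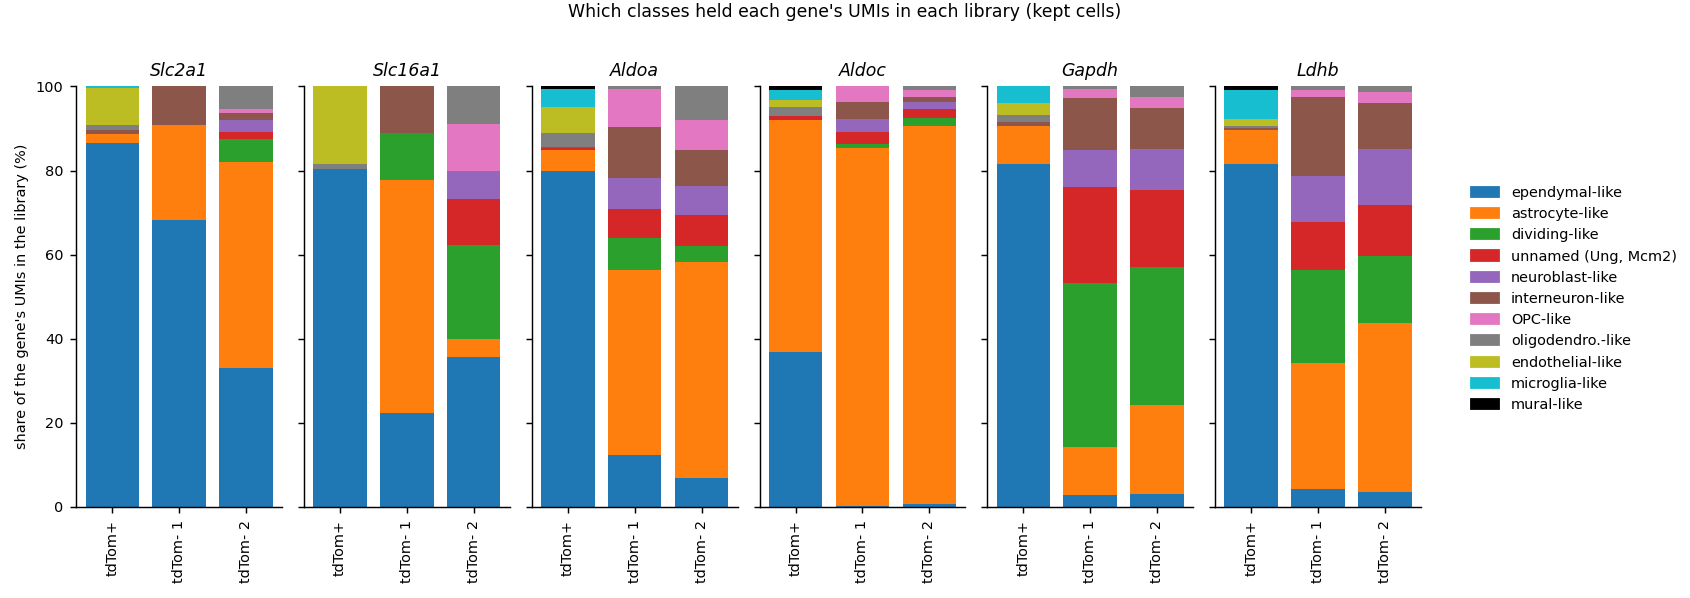
Share of the UMIs of 6 genes that each class held in each library (percent of the gene's UMIs in kept cells, stacked to 100). The tdTomato-positive library is left of both tdTomato-negative libraries; ependymal-like cells hold 86.6% of Slc2a1 in the first, and astrocyte-like cells hold 85.1% and 89.9% of Aldoc in the others.

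Within ependymal-like cells, 0 of the 7 genes that could be tested passed between the gates, where 0.293% of 4098 genes did (0.171% higher, 0.122% lower). One of them, Slc2a1, had an unadjusted p below 0.05, and DESeq2 called 0 genes of all tested (17 below an unadjusted 0.05, against 133 with edgeR). Slc2a1 had 374 CPM in tdTomato-positive ependymal-like cells, against 334 and 213 CPM in tdTomato-negative ones (0.69 ± 0.33, adjusted p = 0.999). Slc16a1 had 126 CPM against 44.5 and 92.05 CPM (0.72 ± 0.49), and Aldoa had 396 CPM, between the 400.4 and 316 CPM of the tdTomato-negative libraries. Hk1, Pfkp and Ldha were too low for the filter, and tdTomato-negative libraries 1 and 2 held 12 and 45 ependymal-like cells. A value that did not pass does not show that the gates are alike.

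The genes most alike in pattern were named by Pearson's correlation of log2(CPM + 10) over the 20 sums, among 3349 genes with a mean of at least 50 CPM that are no markers. These sums share libraries and depth, so r is a description. Aldoc was closest to Cldn10 (0.90), Slc6a11 (0.89) and Vegfa (0.89), and Aldoa to Camk2n1 (0.89), Rabac1 (0.89) and Pttg1ip (0.87). Slc2a1 was closest to Ech1 (0.89), Gsta4 (0.89) and Anxa5 (0.88), and Slc16a1 to Ahnak (0.82), Apbb2 (0.80) and Capns1 (0.79). Gapdh was closest to Atp5b (0.89), Slc25a3 (0.83) and Fdft1 (0.82), and Pkm to Fam162a (0.84), Lsm14a (0.78) and Myo10 (0.78). Pfkp was closest to Ldhb (0.79), Lgi1 (0.79) and Pla2g7 (0.75), and Ldhb to Fbrsl1 (0.83), Mdh1 (0.80) and Lfng (0.79). Ldha was closest to B2m (0.76), Bcl10 (0.73) and Commd1 (0.72), and Hk1, the lowest of all, to Trappc2l (0.71), Idh2 (0.70) and Mydgf (0.68). Pfkp and Ldhb were the only pair in which one of the 10 genes was among the 3 nearest of another.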

How the data were processed

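Each of the 3 libraries has a deposited matrix of whole-number UMI counts, not normalized. Seurat 1.4.0.15, STAR and Cell Ranger are named, beside GRCm38.p5 and mm10, in the submitters' processing notes. What each did, how barcodes were called as cells and whether counting used strand is not given in the sources used here. On the opposite strand Fam57b overlaps Aldoa, Iffo1 Gapdh, Pitrm1 Pfkp, Hk1os Hk1, and Gm12867 and Gm12868 Slc2a1 (GENCODE M21).

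Everything else was computed from the counts. Barcodes needed at least 300 genes and no more than 25% mitochondrial UMIs, which left out 62 tdTomato-positive and 3 and 6 tdTomato-negative barcodes. Cells were scaled to 10000, log-transformed with a pseudocount of 1 and clustered by the Leiden method (1000 variable genes, 20 components, 15 neighbours, resolution 1.0; scanpy 1.11.5). Clustering used genes with an even last Ensembl digit plus 146 markers, without the members and the wider list. Tests used the other 13935 genes, and 3698 passed filterByExpr in the class fit. No doublets were removed, and Scrublet marked 3.57% of tdTomato-positive cells and 0.781% and 0.268% of tdTomato-negative cells, the last too few to show that the caller worked. Sums of at least 10 cells per class and library were tested with edgeR 4.0.16 (quasi-likelihood, TMM, library as a block, Benjamini-Hochberg at 0.05), and DESeq2 1.42.0 was the other tool. The library is the block because classes of 1 library come from the same suspension. The edgeR step was tested on simulated data. Levels per sum have exact Poisson intervals and shares exact Clopper-Pearson intervals at 95%, and both cover counting error only. The same holds for intervals of counting ratios. Ratios and folds at the floor pool the UMIs of a class over all its libraries, so they can mix gate with class. Thinning to 1000 UMIs left out 41 tdTomato-positive and 12 and 6 tdTomato-negative cells. Named are all 10 genes in each comparison, up to 12 called genes of the wider list with the largest change, from which the text names some, and the 3 genes most alike each member. The members and lists were chosen with earlier results of these data known. Promoter sequences are from RefSeq (GRCm38.p6), 1 window a gene, the one with the most GENCODE starts within 50 bases.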

Additional observations from a re-analysis of the deposited data

Results flagged for a closer look

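Hk1 differed in direction between the gates in ependymal-like over astrocyte-like cells. In the tdTomato-positive library ependymal-like cells had 52.7 CPM on 31 UMIs, and the 16 astrocyte-like cells had 0 UMIs, so the difference was 52.7 CPM. In the tdTomato-negative libraries ependymal-like cells had 44.5 and 40.3 CPM, below the 83.6 and 51.3 CPM of astrocyte-like cells. A count of 0 in those 16 cells allows up to 93.3 CPM (3 UMIs), which covers both tdTomato-negative values of astrocyte-like cells. The difference between the gates was not tested.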

How the results depend on the processing

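Of the member fold changes recomputed under all alternatives, 1042 kept their side of the threshold or, with no test, moved by under 1 SE. Calls were lost in 51 and gained in 9, 2 reversed, and 9 values with no test moved by over 1 SE. A change of sign counted as a reversal only where the call passed before or after. The 1042 thus include changes of sign, as for Hk1 in ependymal-like over astrocyte-like cells (-0.62 to 0.24 with 1 library left out). The reversals were Aldoc in ependymal-like over neuroblast-like cells without tdTomato-negative replicate 2 (-0.22, within a leave-one-out range of -0.22 to 1.12) and Gapdh in astrocyte-like over dividing-cell-like cells with no composition scaling (-0.38), a setting added after seeing the data. Leaving out tdTomato-negative replicate 1 or 2 cost 16 and 14 calls, and the reversed Aldoc call was lost without replicate 2 as well. Leaving out the tdTomato-positive replicate cost 2. In these settings fewer sums and UMIs are left, and lone sums are assumed to vary like the other classes.

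Counts of genes called ranged, with 1 library left out, over 343 to 1055 (ependymal-like over astrocyte-like), 402 to 1595 (over dividing-cell-like), 305 to 1453 (over neuroblast-like), 499 to 1814 (astrocyte-like over dividing-cell-like), 326 to 1562 (over neuroblast-like), 54 to 833 (dividing-cell-like over neuroblast-like) and 12 to 207 (Gfap-rich over Gfap-poor). Testing all genes, clustering genes included, gave 2268, 3222, 3006, 3435, 2890, 1162 and 348 calls in the same order, from more genes tested. With no replicate block (library left out), dividing-cell-like over neuroblast-like cells gave 423 calls beside 719, and the Gfap comparison 85 beside 149. The block changed 3 member calls, Aldoc in ependymal-like over neuroblast-like cells (0.54 without it) and Hk1 and Pkm in dividing-cell-like over neuroblast-like cells (-1.70 and 0.69). No paired analysis was possible because the tdTomato-positive gate has 1 library, for the comparisons of gates. DESeq2 gave 407 calls in dividing-cell-like over neuroblast-like cells, 1866 beside 4579 between gates and 0 beside 12 in ependymal-like cells between gates. In the Gfap comparison no count filter gave 87 calls and no composition scaling 258. The causes were not tested.

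Of the recomputed isoform shares 152 stayed within 1 SD, or within the exact interval for classes of 1 library, and 8 moved further. Neuroblast-like Aldoc was 34.6% and Ldhb 87.4% with clustering on the other digits, Ldhb 87.4% at resolution 0.5, oligodendrocyte-like Aldoc 26.0% and astrocyte-like Ldhb 88.3% without Scrublet calls, Gfap-rich Aldoc 83.4% under a stricter cell filter, young interneuron-like Ldhb 90.4% at resolution 0.5 and Gfap-poor Ldhb 83.4% at resolution 2.0. The 152 include means with 1 library left out, which cannot leave 1 SD when only 2 or 3 libraries enter, so they do not show stability. With 1 library left out the oligodendrocyte-like Ldhb share ran from 50.0% to 96.2%. The dividing-cell-like Aldoc share ran from 26.7% to 63.4%. Depth limits Slc16a1, Hk1, Pfkp, Ldha and, outside ependymal-like cells, Slc2a1 most, which have few UMIs in single sums.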
